A study of Mus musculus with 18 samples.

Results

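The tricarboxylic acid cycle was followed through 9 of its genes, Cs, Idh3a, Ogdh, Dlst, Suclg1, Sdha, Sdhb, Fh1 and Mdh2, in mouse CD4+ T cells. They were taken by symbol from the 12393 genes that had at least 1 probe set naming that gene alone. Together they had 16 such probe sets, and each gene was represented by the one with the highest mean over the 18 arrays. All 9 passed the filter on dim genes (log2 4 on at least 3 arrays), which 6873 genes in total did.

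The study asked what the estrogen related receptor ERRα does for gene expression in CD4+ T cells, with 6 groups of 3 arrays and 3 independent biological replicates stated for each. Wild-type resting and knockout resting cells were taken straight from mice aged 6 to 8 weeks, without antibody. Wild-type stimulated and knockout stimulated cells had 12 h with 10 µg of antibodies to CD3 and CD28. Neither genotype had an untreated group cultured without antibody, so antibody and 12 h of culture cannot be told apart. Stimulation below means both together. Knockout means ERRα-/-, and the labels do not say which cells lack the gene or which part of it was removed. The last 2 groups were wild-type cells with 20 µM XCT790, an inverse agonist of ERRα, and wild-type cells with 20 µM compound A, a second ERRα inhibitor known here only by that code name. The stimulation field of these 6 arrays reads no stimulation, whereas the protocol and the design put both inhibitors into the 12 h stimulation, so each was set against stimulated and against resting cells. Values are log2 GCRMA signals, in which 1 unit is a doubling. Because each array was forced to the same set of values, every change is relative to the rest of the array. In bulk RNA, fewer cells of a type and less RNA per cell cannot be told apart.

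The cycle runs in the mitochondrial matrix, where it oxidises acetyl-CoA to carbon dioxide and passes the electrons to NADH and to the respiratory chain. It also supplies citrate, 2-oxoglutarate and oxaloacetate for the synthesis of lipids, amino acids and nucleotides, for which T cells have a large demand once they are activated. ERRα is a nuclear receptor known to act on many genes of mitochondrial metabolism. In cycle order, Cs encodes citrate synthase, which joins acetyl-CoA to oxaloacetate. Idh3a encodes the catalytic subunit of the NAD-dependent isocitrate dehydrogenase. Ogdh and Dlst encode the first and second components of the 2-oxoglutarate dehydrogenase complex. Suclg1 encodes the alpha subunit of succinyl-CoA ligase, Sdha and Sdhb the flavoprotein and iron-sulfur subunits of succinate dehydrogenase (complex II), Fh1 fumarase, and Mdh2 the mitochondrial malate dehydrogenase.

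RefSeq promoter windows (GRCm38.p6, 250 bases before to 50 bases after an annotated start) were held for 8 of the 9 genes, all but Idh3a. Both strands were searched for the ERR element TNAAGGTCA, for its core AAGGTCA, which lies inside it, for the E-box CACGTG and for the palindromic NRF1 motif. TNAAGGTCA was in none of the 8 genes' windows and in a window of 1.43% of all 27025 genes. Ogdh had several windows and each other gene 1, so Ogdh had more chances of a match. AAGGTCA was in a window of 1 gene, Ogdh, and of 5.38% of all genes. CACGTG was also found in Ogdh alone among the 8, in more than 1 of its windows, and in a window of 8.09% of all genes. The NRF1 motif was in none of the 8 genes and in a window of 1.07% of all genes. A match or its absence describes these letters in these windows and says nothing of what binds there. The Ogdh window is printed because it is the only one with a core match. The Fh1 and Suclg1 windows are printed because these genes fell most with XCT790 on the main probe sets. Capitals mark matches, which in Ogdh are CACGTG starting 110 bases before the start and TGACCTT, the core read on the opposite strand, starting 5 bases before it. The windows lie at chr11:6291920-6292219 (plus strand), chr1:175625586-175625885 (minus strand) and chr6:73248255-73248554 (plus strand).
Ogdh: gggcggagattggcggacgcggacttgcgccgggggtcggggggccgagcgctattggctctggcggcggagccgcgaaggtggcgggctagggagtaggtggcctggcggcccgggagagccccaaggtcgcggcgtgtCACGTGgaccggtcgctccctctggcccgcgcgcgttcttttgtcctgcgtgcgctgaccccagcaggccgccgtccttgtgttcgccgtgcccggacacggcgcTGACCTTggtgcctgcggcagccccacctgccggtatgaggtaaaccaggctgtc
Fh1: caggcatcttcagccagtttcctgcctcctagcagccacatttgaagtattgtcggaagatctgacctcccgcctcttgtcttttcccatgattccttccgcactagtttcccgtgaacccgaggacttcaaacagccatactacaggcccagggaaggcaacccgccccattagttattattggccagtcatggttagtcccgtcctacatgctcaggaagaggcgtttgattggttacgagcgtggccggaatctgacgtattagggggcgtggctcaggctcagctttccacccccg
Suclg1: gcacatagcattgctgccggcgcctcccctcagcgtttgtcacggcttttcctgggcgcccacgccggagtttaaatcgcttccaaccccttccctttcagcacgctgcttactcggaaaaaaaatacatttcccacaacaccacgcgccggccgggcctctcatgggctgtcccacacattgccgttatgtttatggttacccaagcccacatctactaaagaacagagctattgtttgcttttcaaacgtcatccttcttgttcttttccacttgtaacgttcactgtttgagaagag

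Esrra, the gene deleted in the knockout, read 5.51, 5.25 and 5.51 in resting wild-type cells and 5.28, 5.47 and 5.36 in stimulated wild-type cells. In knockout cells it read 4.34, 4.65 and 4.65 at rest and 4.33, 4.30 and 4.71 after stimulation, below every wild-type array. Knockout minus wild-type was -0.87 ± 0.11 at rest (SE; limma, adjusted p = 0.000216) and -0.92 ± 0.11 after stimulation (adjusted p = 0.000331), and whether its 1 probe set lies in the deleted part is not given in the sources used here. The 5′ probe set of the bacterial dap control read from 3.99 to 6.38 on the 6 untreated wild-type arrays and from 7.45 to 8.51 on the other 12. Any comparison of a knockout or inhibitor group with resting or stimulated wild-type cells runs across this split, where the group effect and the split cannot be told apart. Stimulation within a genotype, XCT790 against compound A and either inhibitor against stimulated knockout cells do not cross it.

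Markers of other cells also moved with the groups. All 9 macrophage markers measured were at or above log2 4 on every resting array, with array means from 8.20 to 9.34 in wild-type and from 8.87 to 10.74 in knockout cells. On stimulated and inhibitor arrays 0 or 1 of the 9 were, with array means from 2.33 to 2.82. Means of 9 erythroid markers ran from 3.98 to 6.19 in resting wild-type, from 7.49 to 9.01 in resting knockout and from 2.23 to 2.89 in all other arrays. Means of 9 neutrophil markers ran from 3.88 to 5.57 in resting wild-type and from 6.63 to 9.07 in resting knockout cells, and up to 5.36 in stimulated knockout cells. Replicate 1 of resting knockout cells was the highest array of its group for all 3 lists and the lowest for the T cell list. The 9 T cell markers were above log2 4 on every array, with group means from 11.48 with XCT790 to 12.27 at rest in wild-type cells. Of the CD8 T cell markers, 1 of 2 was at or above log2 4. Group means of 7 B cell markers were 7.80 in resting wild-type, 6.98 in resting knockout and from 4.90 to 5.45 in the other groups. For 2 NK cell markers, of which Ncr1 was below the filter on dim genes, they were 6.67 and 6.90 at rest in wild-type and knockout cells. In the other groups they ran from 4.63 to 4.97.

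**Figure D1:**
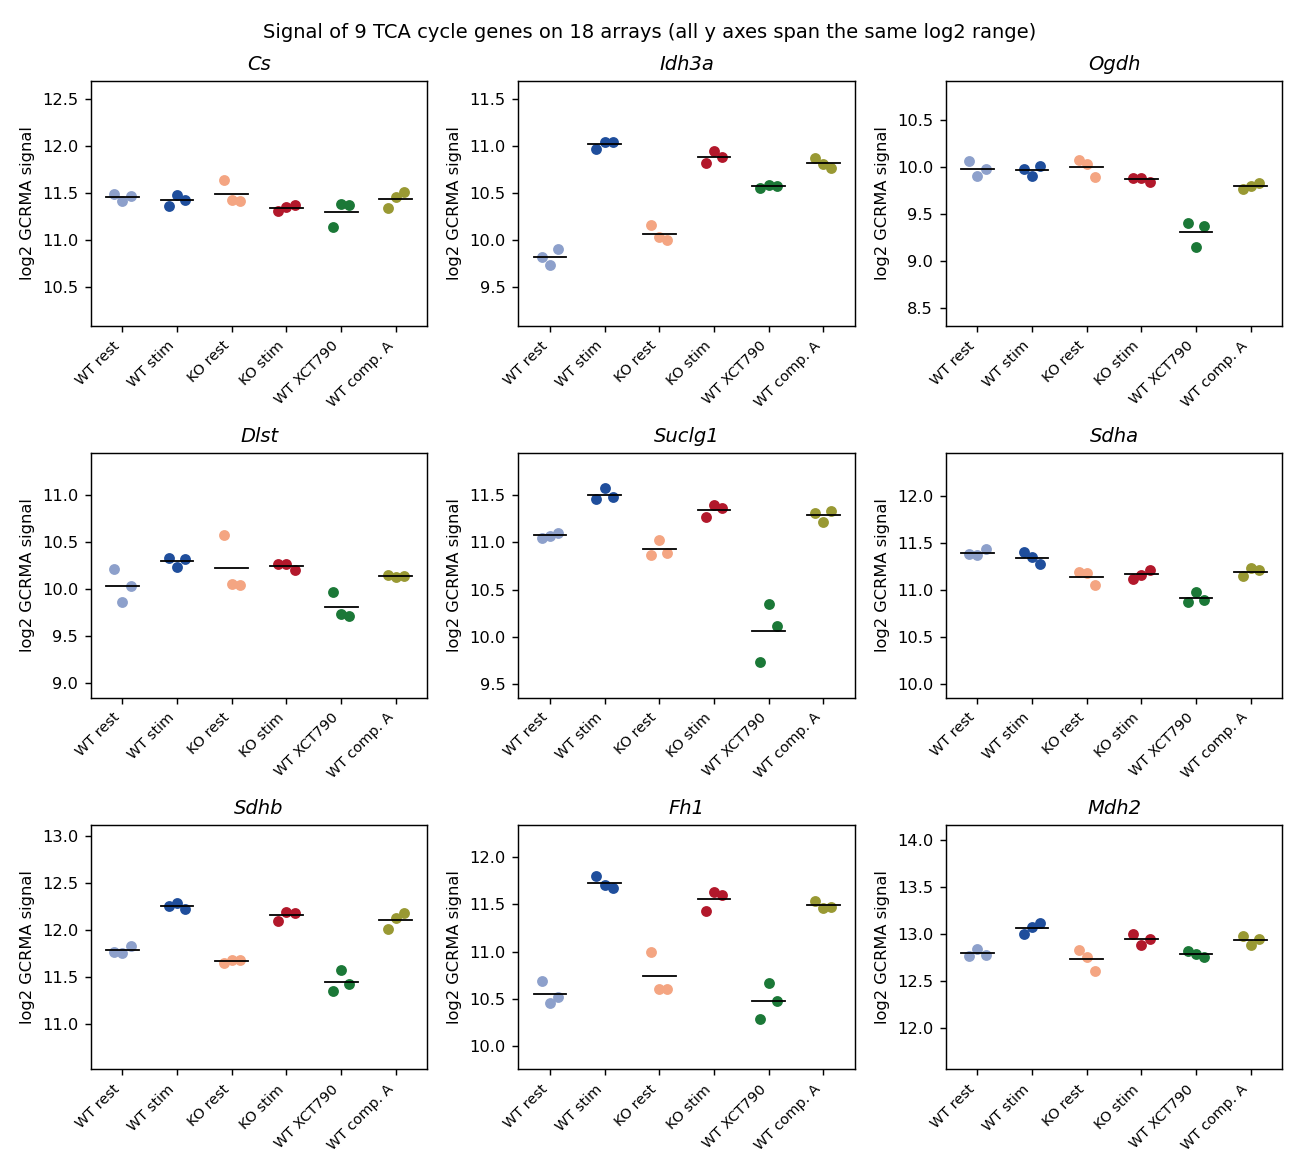
Log2 GCRMA signal of the 9 genes (y axis, log2 units) on each of the 18 arrays, by group (x axis), with points for arrays and lines for group means of 3. Idh3a and Fh1 are high in stimulated and compound A arrays and low at rest, Suclg1 has its 3 lowest arrays with XCT790, and Cs arrays overlap in most pairs of groups.

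Idh3a, Fh1, Sdhb, Suclg1 and Mdh2 were higher after stimulation, that is antibody with culture, in wild-type cells, and the same 5 genes in knockout cells. On the main probe sets the changes of Cs, Ogdh, Dlst and Sdha passed in neither genotype. Idh3a rose 2.29-fold and Fh1 2.27-fold in wild-type cells, against 1.39-fold for Sdhb, 1.35-fold for Suclg1 and 1.2-fold for Mdh2. So 5 of 9 genes were higher and 0 lower in wild-type cells, where 37.0% of all 6873 genes were higher and 75.4% changed in either direction. In knockout cells the counts were again 5 and 0 of 9, beside 37.7% of all genes higher and 73.4% changed. The median of the 9 changes was 0.26 in wild-type and 0.21 in knockout cells, and that of all genes was -0.011 and 0.015. Thresholds here and below are an adjusted p under 0.05 in limma, adjusted by Benjamini and Hochberg over all genes tested.

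Idh3a read 9.82, 9.73 and 9.91 in resting and 10.96, 11.04 and 11.04 in stimulated wild-type cells. In knockout cells it read 10.16, 10.03 and 10.00 at rest and 10.82, 10.94 and 10.88 after stimulation. Stimulated arrays lay above all resting ones in both genotypes, by 1.20 ± 0.065 (SE, adjusted p = 6.44e-10) in wild-type and 0.82 ± 0.065 (adjusted p = 3.79e-08) in knockout cells. Fh1 read 10.68, 10.45 and 10.52 at rest and 11.81, 11.71 and 11.68 after stimulation in wild-type cells. In knockout cells Fh1 read 11.00, 10.61 and 10.61 at rest, where replicate 1 stood above the other 2, and 11.43, 11.63 and 11.61 after stimulation. Resting and stimulated Fh1 values did not overlap, with a difference of 1.18 ± 0.11 (adjusted p = 2.7e-07) in wild-type and 0.82 ± 0.11 (adjusted p = 1.4e-05) in knockout cells.

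The rises at the succinate steps were smaller in size. Sdhb, whose iron-sulfur clusters carry electrons from the flavin to ubiquinone, read 11.77, 11.75 and 11.83 at rest and 12.26, 12.29 and 12.22 after stimulation in wild-type cells. In knockout cells it read 11.65, 11.68 and 11.68 and then 12.10, 12.19 and 12.18. The groups did not overlap, and the rise was 0.47 ± 0.066 (adjusted p = 1.28e-05) in wild-type and 0.48 ± 0.066 (adjusted p = 1.15e-05) in knockout cells. Suclg1 rose by 0.43 ± 0.11 (adjusted p = 0.00322) and 0.41 ± 0.11 (adjusted p = 0.00438) in the same order. Mdh2, which regenerates oxaloacetate, rose by 0.26 ± 0.066 (adjusted p = 0.00213) and 0.21 ± 0.066 (adjusted p = 0.00941). The knockout rise of Mdh2 no longer passed without replicate 3 of resting knockout cells, at 0.15 and adjusted p = 0.0566, nor in a fit on those 2 groups alone, at adjusted p = 0.0848.

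Cs read 11.46 ± 0.037 at rest and 11.42 ± 0.06 after stimulation in wild-type cells (mean ± SD, n = 3), a difference of -0.032 ± 0.081 (SE, adjusted p = 0.734, 95% interval -0.21 to 0.14). Ogdh read 9.98 ± 0.084 and 9.97 ± 0.057, a difference of -0.017 ± 0.075 (adjusted p = 0.847, 95% interval -0.18 to 0.14). Sdha read 11.40 ± 0.034 and 11.34 ± 0.067, a difference of -0.055 ± 0.061 (adjusted p = 0.42, 95% interval -0.19 to 0.075). These intervals, on the main probe sets, leave out a rise as large as that of Sdhb. Another Cs probe set, 1422577_at, rose by 0.97 (adjusted p = 4.79e-08), while 1450667_a_at showed no change that passed. Dlst was higher by 0.26 ± 0.12 on average, with no overlap between the arrays, at adjusted p = 0.071. It passed without replicate 1 of resting wild-type cells, at 0.35 and adjusted p = 0.0300. With the array number as a replicate block it passed at 0.26 and adjusted p = 0.0303. Other passing fits were arrays shifted to a common median (adjusted p = 0.0367), array weights (0.000903) and the compared groups alone (0.0467). Averaged probe sets (0.00298) and probe set 1431011_at (0.000784) also passed. Leaving out other single arrays gave adjusted p up to 0.262.

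Subunits of 1 complex were set side by side. A pair of exact permutation tests, chosen after the values were seen, compared them within an array, permuting stimulated and resting labels within each genotype. Sdhb minus Sdha rose by 0.53 in wild-type and 0.46 in knockout cells, with every stimulated array above every resting one (two-sided exact p = 0.005, the smallest these 400 permutations can give, and 0.01 adjusted over both pairs). Dlst minus Ogdh rose by 0.28 and 0.15 (two-sided exact p = 0.02, and 0.02 adjusted over both pairs). Because each pair was chosen for its difference, small p-values were built into the choice. The tests describe these arrays, are no independent evidence, and no conclusion is drawn from them. The adjustment covers only the pairs chosen, and neither Dlst nor Ogdh passed by itself in either genotype in the reported fit.

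The stimulation changes go together with the fall of the macrophage, erythroid, neutrophil, B cell and NK cell markers given above. The part of these markers in the changes was not tested. The T cell list fell by 0.33 in its median gene with stimulation in wild-type cells, with 5 of 9 lower and 1 higher.

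**Figure D2:**
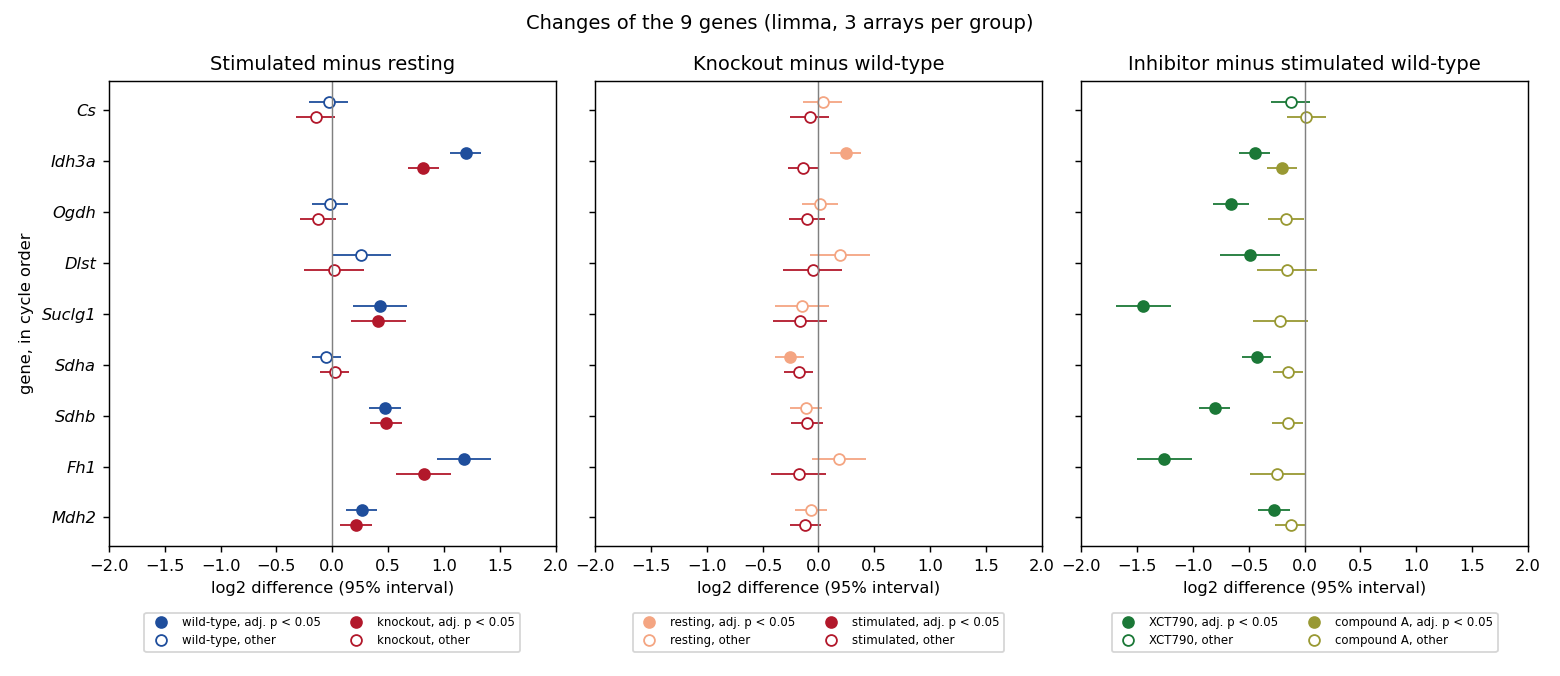
Log2 difference of each gene (x axis) with its 95% interval from limma, for stimulation in both genotypes, for knockout against wild-type and for each inhibitor against stimulated wild-type cells; filled points passed at adjusted p under 0.05. Stimulation gives 5 filled points in each genotype, knockout 2 at rest and 0 after stimulation, XCT790 8 and compound A 1.

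Knockout and wild-type cells differed little in these genes. At rest Idh3a was 1.18-fold higher and Sdha 1.19-fold lower in knockout cells, and the other 7 genes did not pass. That is 1 gene higher and 1 lower of 9, beside 6.74% of all genes higher and 12.3% lower, 19.0% in all. After stimulation 0 of 9 passed, beside 2.18% of all genes, and 1 of 9 had an unadjusted p under 0.05, as did 1065 of all 6873. Array weights, the only fit that gave calls in these genes after stimulation, made it 2 of 9, beside 1639 of all 6873 genes.

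Sdha, the catalytic flavoprotein of complex II, read 11.39, 11.37 and 11.44 in resting wild-type and 11.19, 11.18 and 11.05 in resting knockout cells, with no overlap. The difference was -0.26 ± 0.061 (SE, adjusted p = 0.0118). After stimulation it read 11.41, 11.35 and 11.27 in wild-type and 11.12, 11.16 and 11.22 in knockout cells, again without overlap, with a difference of -0.18 ± 0.061 at adjusted p = 0.173. For Idh3a at rest, whose arrays are given above, the difference was 0.24 ± 0.065 (adjusted p = 0.0195), also without overlap. The Idh3a call at rest was lost without replicate 2 of resting wild-type cells (0.20, adjusted p = 0.0831) or without replicate 1 of resting knockout cells (0.20, adjusted p = 0.0659). The Sdha call was lost without replicate 3 of resting wild-type cells (-0.24, adjusted p = 0.0533), and both were lost in a fit on the resting arrays alone (adjusted p = 0.141 and 0.109). Shifting the arrays to a common median changed neither call but moved the split over all genes from 463 higher and 845 lower to 511 higher and 599 lower. The median change of all genes at rest was -0.11, and for both genes the knockout arrays crossed the dap split. They also had the higher erythroid and neutrophil markers and the lower B cell markers given above, whose part was not tested.

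In stimulated knockout cells all 9 genes had a mean below that of stimulated wild-type cells, by 0.052 for Dlst up to 0.18 for Fh1 and 0.18 for Sdha, beside a median of -0.063 for all genes. In 6 of the 9 the arrays did not overlap, as in 23.0% of all genes with the knockout lower. None of these differences passed the test, and the widest 95% interval, that of Dlst, ran from -0.32 to 0.22.

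The response to stimulation itself was compared between genotypes by the interaction term. It passed for 0 of 9 genes, beside 0.902% of all genes, with 2 of 9 and 1200 of 6873 at an unadjusted p under 0.05. For Idh3a the knockout response was smaller by 0.38 (SE 0.091, adjusted p = 0.0664), and for Fh1 by 0.36 (adjusted p = 0.269). The Idh3a term passed with no filter (adjusted p = 0.0413), with a trended and robust prior (0.0477), with array weights (0.0165) and without replicate 3 of resting knockout cells (0.0482). Leaving out other single arrays gave adjusted p up to 0.170. Array weights also raised the interaction calls over all genes from 62 to 1222 of 6873, and their estimation stopped before reaching its tolerance. On the dimmer probe set 1422501_s_at, Idh3a averaged 4.43 at rest and 5.52 after stimulation in wild-type cells. In knockout cells that probe set averaged 4.34 and 5.35. On the main probe set, knockout minus wild-type was 0.24 for Idh3a at rest and -0.14 after stimulation.

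XCT790 lowered 8 of the 9 genes against stimulated wild-type cells, all but Cs. On the main probe sets Suclg1 fell 2.72-fold, Fh1 2.39-fold, Sdhb 1.75-fold and Ogdh 1.58-fold, while Dlst, Idh3a, Sdha and Mdh2 fell between 1.21-fold and 1.4-fold. The second Sdha probe set, described below, fell further than any of these. No gene was higher. Over all genes 36.9% were lower and 66.0% changed in either direction, and the median was -0.062 for all genes and -0.49 for the 9. The count was 8 of 9 in each of the 6 fits that left out 1 of these arrays. All of these comparisons share the stimulated wild-type arrays with the stimulation comparison, so falls here and rises there are not independent.

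Suclg1 read 11.05, 11.07 and 11.10 at rest, 11.46, 11.57 and 11.48 after stimulation and 9.73, 10.35 and 10.11 with XCT790. All 3 XCT790 arrays lay below every other array in the study, including those of resting wild-type cells, and their spread was the widest of any group for this gene. The difference was -1.44 ± 0.11 from stimulated (SE, adjusted p = 8.89e-08) and -1.01 ± 0.11 from resting wild-type cells (adjusted p = 1.52e-06). Fh1 read 10.29, 10.67 and 10.47 with XCT790, -1.25 ± 0.11 from stimulated cells (adjusted p = 3.31e-07). Its values overlapped those of resting cells, from which the mean differed by -0.075 ± 0.11 (adjusted p = 0.57, 95% interval -0.32 to 0.17).

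Ogdh, which had shown no response to stimulation that passed, read 9.98, 9.90 and 10.02 in stimulated cells and 9.41, 9.15 and 9.37 with XCT790. Its 3 XCT790 arrays were the lowest of all 18, by -0.66 ± 0.075 from stimulated (adjusted p = 2.9e-06) and -0.67 ± 0.075 from resting cells (adjusted p = 1.48e-06). Sdha followed the same order, with 10.88, 10.98 and 10.89 on the XCT790 arrays, -0.43 ± 0.061 from stimulated (adjusted p = 2.36e-05) and -0.48 ± 0.061 from resting cells (adjusted p = 5.11e-06). Sdhb read 11.35, 11.58 and 11.43, also below all resting arrays, -0.81 ± 0.066 from stimulated (adjusted p = 1.31e-07) and -0.33 ± 0.066 from resting cells (adjusted p = 0.000386). So 4 genes, Suclg1, Ogdh, Sdha and Sdhb, were lower with XCT790 than in resting cells, beside 38.3% of all genes lower and 71.9% changed.

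Idh3a differed from those 4. It read 10.55, 10.58 and 10.57 with XCT790, between resting and stimulated cells with no overlap with either. That was -0.45 ± 0.065 from stimulated (adjusted p = 2.66e-05) and 0.75 ± 0.065 from resting cells (adjusted p = 8.83e-08). On the main probe sets no other of the 9 genes passed as higher than in resting cells. With the probe sets of each gene averaged, Idh3a differed from rest by 0.032 (adjusted p = 0.822), and Cs passed as higher, by 0.19 (adjusted p = 0.0189). Dlst fell by 0.49 (SE 0.12, adjusted p = 0.00307) and Mdh2 by 0.27 (SE 0.066, adjusted p = 0.00209) from stimulated cells. Cs read 11.30 ± 0.14 (SD, n = 3), -0.12 ± 0.081 from stimulated cells (adjusted p = 0.2, 95% interval -0.30 to 0.051).

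Against stimulated knockout cells, on the same side of the dap split, XCT790 arrays were lower for 7 of 9 genes, beside 33.9% of all genes lower and 65.2% changed. The Dlst call among them was lost with averaged probe sets (adjusted p = 0.0864). The differences included -1.28 ± 0.11 for Suclg1 (adjusted p = 3.08e-07), -1.08 ± 0.11 for Fh1 (adjusted p = 1.51e-06) and -0.56 ± 0.075 for Ogdh (adjusted p = 1.49e-05). Mdh2, at -0.15 ± 0.066 (adjusted p = 0.051), and Cs, at -0.046 ± 0.081 (adjusted p = 0.648), did not pass. Esrra itself was higher by 0.65 ± 0.11 with XCT790 than in stimulated knockout cells (adjusted p = 0.000163). The T cell marker mean was 11.48 ± 0.034 with XCT790 against 11.87 ± 0.087 in stimulated wild-type cells (SD, n = 3 arrays), and its part in the falls was not tested. Macrophage markers were near their lowest values in both groups, at 2.41 and 2.40.

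Compound A changed these genes less. Against stimulated wild-type cells Idh3a alone passed, 1.15-fold lower, so 1 of 9 genes was lower and 0 higher, beside 18.7% of all genes lower and 33.2% changed. Idh3a read 10.88, 10.81 and 10.76 with compound A and 10.96, 11.04 and 11.04 in stimulated cells, with no overlap and a difference of -0.20 ± 0.065 (SE, adjusted p = 0.0277). In 8 of 9 genes, all but Cs, every compound A array lay below every stimulated wild-type array, as in 33.3% of all genes. The median of the 9 differences was -0.16, beside -0.030 for all genes. The count depended on the fit. Array weights gave 8 of 9, beside 4048 of all 6873 genes, and their estimation stopped before reaching its tolerance. The compared groups alone gave 5. Arrays shifted to a common median gave 0, beside 2253 of all genes. Leaving out replicate 2 or 3 of either group also gave 0 (adjusted p for Idh3a from 0.0753 to 0.105). Against stimulated knockout cells, 0 of 9 genes passed and 0 had an unadjusted p under 0.05, beside 26.1% of all genes past the threshold and 2638 at an unadjusted p under 0.05. Array weights gave 3 of 9 there, beside 3957 of all 6873 genes.

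Compared with resting wild-type cells, compound A arrays were higher for Idh3a (1.00 ± 0.065, adjusted p = 6.75e-09), Fh1 (0.94 ± 0.11, adjusted p = 4.3e-06) and Sdhb (0.32 ± 0.066, adjusted p = 0.000557). They were lower for Sdha (-0.20 ± 0.061, adjusted p = 0.00819) and Ogdh (-0.18 ± 0.075, adjusted p = 0.0428). That is 5 of 9 genes, beside 69.7% of all genes. The last 2 calls were lost with arrays shifted to a common median (adjusted p = 0.0615 and 0.202), and the Ogdh call also without replicate 1 or 3 of resting cells or any 1 compound A array, with adjusted p up to 0.156.

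Set against each other at 20 µM, XCT790 gave lower values than compound A for 7 of 9 genes, beside 27.8% of all genes lower and 52.6% different in either direction. Suclg1 was 2.34-fold lower with XCT790, at 9.73, 10.35 and 10.11 against 11.31, 11.22 and 11.34 (-1.23 ± 0.11, SE, adjusted p = 1.07e-06). Fh1 was 2.02-fold lower (-1.01 ± 0.11, adjusted p = 6.19e-06), with compound A arrays at 11.54, 11.46 and 11.47. Neither gene's arrays overlapped between the compounds. Sdhb differed by -0.65 ± 0.066 (adjusted p = 2.24e-06) and Ogdh by -0.49 ± 0.075 (adjusted p = 8.54e-05). Sdha and Idh3a differed by -0.28 ± 0.061 and -0.25 ± 0.065 (adjusted p = 0.00143 and 0.00519). Dlst differed by -0.33 ± 0.12 (adjusted p = 0.0361), a call lost without replicate 2 or 3 of XCT790 or any 1 array of compound A (adjusted p from 0.0701 to 0.113). It was also lost with no filter, with shifted arrays and with averaged probe sets (adjusted p = 0.0688, 0.0529 and 0.107). Cs and Mdh2 did not pass, with 95% intervals from -0.31 to 0.034 and -0.29 to -0.0069, which do not show that the compounds act alike on them.

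Ordered by group mean, Idh3a, Fh1, Suclg1, Sdhb, Mdh2 and Dlst were each highest in stimulated wild-type cells, followed by stimulated knockout cells, with no difference that passed between these neighbours. Suclg1, Sdhb, Sdha, Ogdh, Dlst, Fh1 and Cs were lowest with XCT790. That lowest place was separated from its neighbour beyond the test for Suclg1, Sdhb, Sdha and Ogdh and not for Dlst, Fh1 or Cs. For Mdh2 the lowest group was resting knockout cells and for Idh3a resting wild-type cells. Along the Cs order none of the 5 neighbouring differences passed.

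**Figure D3:**
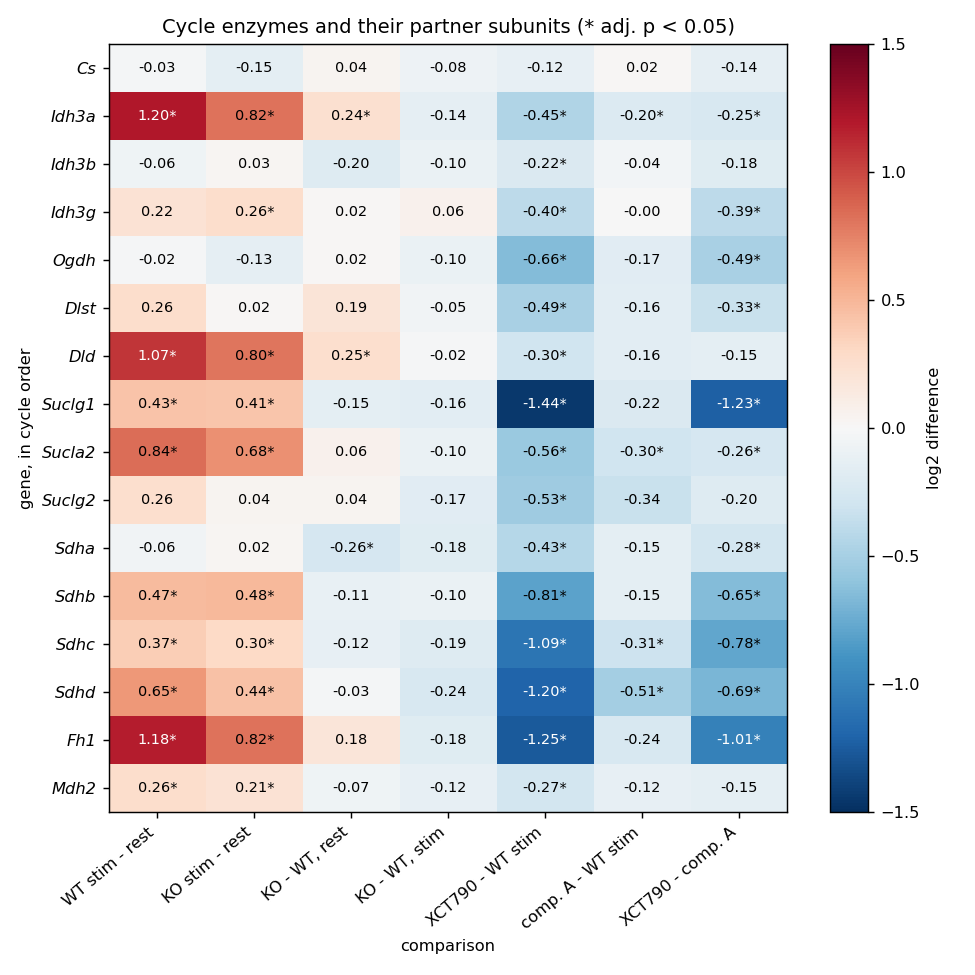
Log2 differences (colour and printed value) of the 9 genes and 7 partner enzymes and subunits, in cycle order down the y axis, for 7 comparisons along the x axis; an asterisk marks adjusted p under 0.05. The XCT790 column against stimulated cells is below 0 for all 16 genes, with values near -1 or lower for Suclg1, Sdhc, Sdhd and Fh1.

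Companion genes of the cycle were taken from 6 further lists. Their counts stand beside 37.0% of all tested genes higher and 38.4% lower with stimulation in wild-type cells, and 37.7% and 35.7% in knockout cells. With XCT790 29.1% were higher and 36.9% lower than in stimulated wild-type cells, and with compound A 14.5% and 18.7%. Where a gene averaged below log2 4 in a group compared, its means are given, and it is left out of the count.

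Of the 7 other cycle enzymes and subunits measured, 4 rose and 0 fell with stimulation in wild-type cells. Dld, the lipoamide dehydrogenase shared by the 2-oxoacid dehydrogenase complexes, rose by 1.07 (adjusted p = 2.21e-09), and Sucla2, the ATP-specific beta subunit of succinyl-CoA ligase, by 0.84 (adjusted p = 1.05e-06). The membrane anchors of complex II, Sdhd and Sdhc, rose by 0.65 and 0.37 (adjusted p = 1.96e-05 and 0.000273). Idh3g, Idh3b and Suclg2 did not pass. In knockout cells 5 rose and 0 fell. With XCT790 all 7 fell, led by Sdhd (-1.20, adjusted p = 9.98e-08) and Sdhc (-1.09, adjusted p = 1.6e-08), and with compound A 3 fell, Sdhd, Sdhc and Sucla2. The Sucla2 call with compound A was lost without replicate 2 or 3 of stimulated cells or any 1 compound A array (adjusted p up to 0.0641). Within complex II, Sdhb, Sdhc and Sdhd thus rose with stimulation in both genotypes, while Sdha differed by -0.055 and 0.023 with adjusted p = 0.42 and 0.739.

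Genes that assemble complex II or make lipoate, the cofactor of Dlst, passed the filter for 5 of 6 on the array. Without Lipt2, 2 of 4 rose and 1 fell in stimulated wild-type cells. Lias, the lipoyl synthase, rose by 0.76 (adjusted p = 1.02e-05) and the flavin-attachment factor Sdhaf2 by 0.41 (adjusted p = 7.31e-05). Sdhaf4 fell by 0.49 (adjusted p = 0.0181), a call lost without replicate 3 of resting cells (adjusted p = 0.0650). Lipt2, a lipoyl transferase, averaged 2.96 in resting wild-type and 3.90 in resting knockout cells and passed the filter mainly through the other groups, at 6.70 and 6.49 after stimulation, 5.54 with XCT790 and 5.88 with compound A. All 5 fell with XCT790, Lipt2 by 1.17 (adjusted p = 0.00035) and Sdhaf4 by 1.12 (adjusted p = 4.51e-05). Compound A lowered 1 of 5, Lipt2 by 0.83 (adjusted p = 0.0119), a call lost without replicate 1 of compound A (adjusted p = 0.0501).

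Of 6 NADP-linked and cytosolic counterparts of cycle enzymes that passed the filter, 0 rose and 2 fell with stimulation in wild-type cells, a share near the 38.4% of all genes lower. Idh1 fell by 2.18 (adjusted p = 0.000147) and Idh2 by 0.50 (adjusted p = 0.0193), the cytosolic and mitochondrial NADP-dependent isocitrate dehydrogenases. The Idh2 call was lost without replicate 1 or 3 of resting or replicate 3 of stimulated cells (adjusted p up to 0.0724), and in knockout cells Idh2 fell by 0.73 (adjusted p = 0.00176). With XCT790, 5 of 5 fell, Idh2 by 1.51 (adjusted p = 3.41e-06), while Idh1 averaged 3.98 there. With compound A 2 of 6 fell, Me2 and Acly. The Me2 call with compound A was lost without replicate 1 of stimulated or 3 of compound A cells (adjusted p = 0.0674 and 0.092), and the Acly call without replicate 2 or 3 of stimulated or any 1 of compound A cells (adjusted p up to 0.114).

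Of 10 genes on the array by which carbon enters or leaves the cycle, 7 passed the filter. Gpt2, the mitochondrial alanine aminotransferase, passed only through the inhibitor groups, with means of 2.19 at rest and 3.31 after stimulation in wild-type cells, 2.08 and 3.19 in knockout cells, 7.46 with XCT790 and 4.48 with compound A. Among the other 6, stimulation raised 3 and lowered 2 in wild-type cells. Got1, the cytosolic aspartate aminotransferase, rose by 2.80 (adjusted p = 3.13e-09), and Pck2, the mitochondrial PEP carboxykinase, fell by 1.70 (adjusted p = 0.000641). XCT790 raised 2 and lowered 2 of the 6. It raised Pck2 by 3.14 (adjusted p = 3.13e-06) and Aldh18a1, which starts proline synthesis from glutamate, by 0.95 (adjusted p = 0.000174). It lowered Got2, the mitochondrial aspartate aminotransferase, by 1.31 (adjusted p = 7.61e-06) and the glutamine synthetase gene Glul by 0.72 (adjusted p = 0.000815). Compound A raised 1 and lowered 0, Pck2 by 1.25 (adjusted p = 0.017). The Pck2 call with compound A was lost without replicate 1 of stimulated cells (0.89, adjusted p = 0.0853) or replicate 2 or 3 of compound A (adjusted p = 0.0630 and 0.0646).

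Of 6 subunits of the other 2-oxoacid dehydrogenases, 2 rose and 1 fell in stimulated wild-type cells. Dlat, the pyruvate dehydrogenase counterpart of Dlst, rose by 1.22 (adjusted p = 5.42e-09), and Pdha1, its first component, fell by 0.61 (adjusted p = 1.93e-05). With the mean of all its probe sets the Pdha1 fall was 0.012 (adjusted p = 0.912), and in knockout cells it turned from -0.43 (adjusted p = 0.000509) into a rise of 0.31 (adjusted p = 0.00783). XCT790 lowered 4 of 5, Dlat by 1.05 (adjusted p = 8.26e-08), and the branched-chain subunit Bckdhb averaged 5.36 in stimulated cells and 3.96 with XCT790. Compound A lowered 2 of 6, Dlat by 0.58 (adjusted p = 0.000169) and Pdhb by 0.24 (adjusted p = 0.00596). The Pdhb call with compound A was lost with the mean of all probe sets (adjusted p = 0.381). Dlat was the only companion gene that differed between stimulated knockout and wild-type cells, where 2.18% of all genes passed. Its difference was -0.48 (adjusted p = 0.00504), across the dap split. That call was lost in the fit on those groups alone (adjusted p = 0.0660). Of 5 mitochondrial carriers on the array 3 passed the filter, and 2 of these rose with stimulation, Mpc1 and Slc25a22. The Slc25a22 call was lost without replicate 2 of resting or 3 of stimulated cells (adjusted p = 0.0531 and 0.073). All 3 fell with XCT790, Slc25a11, the 2-oxoglutarate carrier, by 0.96 (adjusted p = 1.20e-05), and 0 of 3 passed with compound A.

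Across the 18 arrays, which share groups and normalization, the genes most like the mean of the 9 (each centred on its own mean) were Uqcrc1 (r = 0.98), Eif2d (0.98), Mrpl22 (0.98), Pomp (0.97), Cox7a2 (0.97) and Ndufa5 (0.97), out of 6864 genes compared. In all, 169 genes exceeded 0.9. Uqcrc1, a core subunit of complex III, averaged 12.16 at rest and 12.59 after stimulation in wild-type cells, 11.92 with XCT790 and 12.41 with compound A. Ndufa5, a subunit of complex I, averaged 10.12 at rest and 11.15 after stimulation in wild-type cells, 9.72 with XCT790 and 10.77 with compound A. The likeness mostly restates the group means and carries no p-value.

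**Figure D4:**
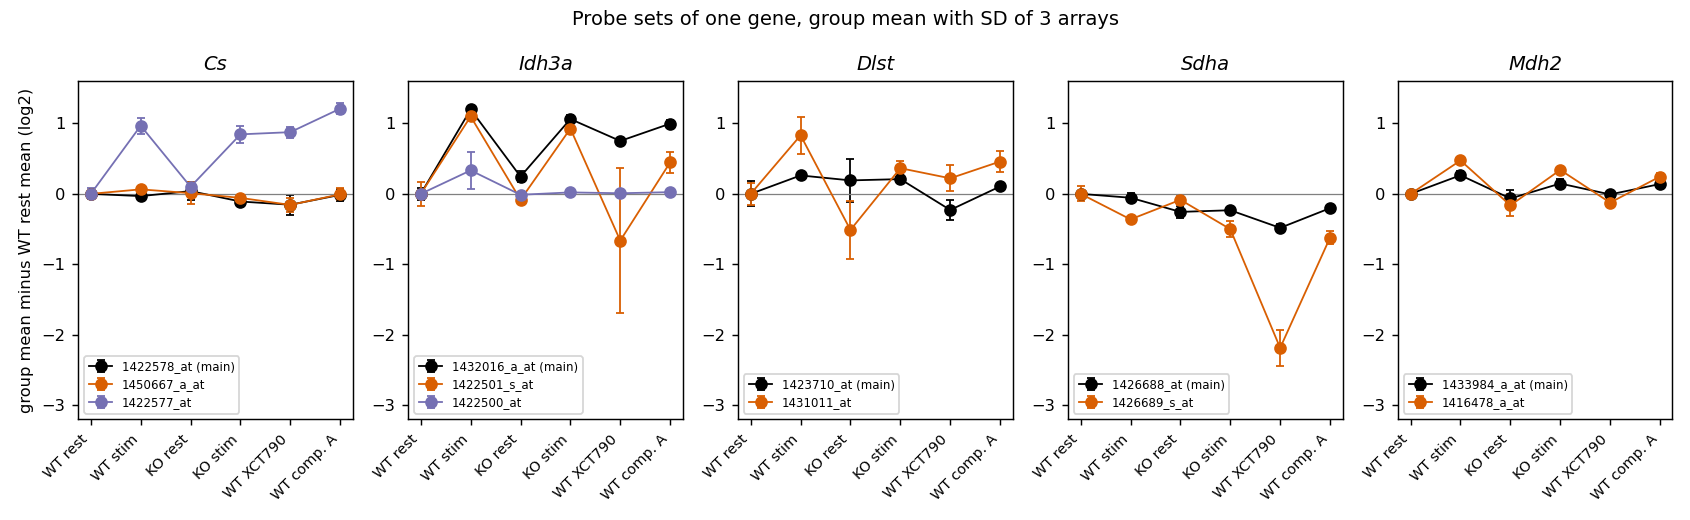
Group means minus that of resting wild-type cells (y axis, log2 units, bars are the SD of 3 arrays) over the 6 groups (x axis) for every probe set of the 5 genes with more than 1. The weakest Cs probe set rises with stimulation while the other 2 stay near 0, and the second Sdha probe set falls further with XCT790 than the main one.

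Probe sets of 1 gene did not always move together. Cs had 3, and the dimmest, 1422577_at, rose from 9.62 ± 0.076 to 10.59 ± 0.11 (SD, n = 3) with stimulation, by 0.97 (adjusted p = 4.79e-08), and by 0.74 in knockout cells, where the main probe set 1422578_at and 1450667_a_at showed no change that passed. With XCT790, 1450667_a_at gave a fall of 0.22 (adjusted p = 0.0229), so the statement that Cs did not change holds for its main probe set. The second Sdha probe set, 1426689_s_at, fell with stimulation by 0.36 in wild-type and 0.42 in knockout cells (adjusted p = 0.00677 and 0.0028). It read 8.75 ± 0.25 with XCT790 against 10.58 ± 0.015 in stimulated cells, a larger fall than that of any of the 9 genes on its main probe set. The place of Sdha among the XCT790 falls, also against Sdhb, thus turns with the probe set. At rest it gave a knockout difference of -0.085 (adjusted p = 0.588). The second Dlst probe set, 1431011_at, rose by 0.83 in wild-type and 0.88 in knockout cells. For Idh3a, 1422501_s_at averaged 4.43 ± 0.17 at rest and 5.52 ± 0.071 after stimulation and gave a knockout difference at rest of -0.084, opposite to the main one, while 1422500_at was below log2 4 on all 18 arrays. With the probe sets of each gene averaged, 8 of 9 genes passed with stimulation in each genotype, 7 higher and 1 lower, and 0 of 9 between resting knockout and wild-type cells. Fh1, Ogdh, Sdhb and Suclg1 had 1 probe set each.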

How the data were processed

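Each probe set of the 18 Affymetrix Mouse Genome 430A 2.0 arrays has a deposited log2 signal that the authors made with GCRMA, per the submitters' processing notes. Sorted values were identical on all 18 arrays, so arrays had been quantile normalized. The version of GCRMA is not given in the sources used here. The table has 22690 probe sets. Controls (64), probe sets naming no gene (1555) and those naming more than 1 (691) were not used, and gene names came from GEO's platform annotation. The probe set with the highest mean stood for each of 12393 genes, and 6873 genes at or above log2 4 on at least 3 arrays were tested. A single limma model (limma 3.58.1, R 4.3.3) with a mean for each labelled group gave the 12 comparisons. It had 12 residual and 2.22 prior degrees of freedom, and its two-sided tests were corrected per comparison by the Benjamini-Hochberg method. Folds are 2 to the power of the difference, and the number of arrays limits the precision.

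The members, lists and tests were chosen with earlier results of these data known. Named were all 9 genes, Esrra, the 6 genes most like their mean, and up to 4 genes of smallest adjusted p per list and comparison, plus any that passed against most of their list. The 2 subunit pairs were chosen after seeing the values. Lists were described by counts, with no set test, and leaving out list genes below log2 4 in a compared group was decided after seeing the values. Equally numbered arrays deviated together (all 3 correlations over 0.1) in 7 comparisons, all but wild-type stimulation, XCT790 against compound A, and the inhibitors against resting cells. A shared day or animal is not named in the labels. On simulated data for wild-type stimulation, 200 of 6873 genes were changed, 50 at each fold. The fit recovered 26% of genes changed 1.25-fold, 62% at 1.5-fold, 82% at 2-fold and 98% at 4-fold. In the real comparison 75.4% of genes passed. Its cut-off after adjustment was therefore less strict, and these shares do not carry over to it. Figures used Python 3.11.15 and matplotlib 3.10.9.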

Additional observations from a re-analysis of the deposited data

Results flagged for a closer look

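Suclg1 and Sdhb lay on opposite sides of resting wild-type cells under the 2 inhibitors, on every array. Suclg1 was -1.01 from resting cells with XCT790 and 0.21 with compound A, and XCT790 minus compound A was -1.23 ± 0.11 (SE, limma, adjusted p = 1.07e-06). Sdhb was -0.33 with XCT790 and 0.32 with compound A, and the difference between the compounds was -0.65 ± 0.066 (adjusted p = 2.24e-06). The compound A difference of Suclg1 from resting cells did not pass (adjusted p = 0.108), while both differences of Sdhb did.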

How the results depend on the processing

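Of 948 results for single genes under other settings, 826 kept their direction and side of the threshold, 62 passed only there, 23 passed only in the reported fit, 13 that passed in either fit changed sign, and 24 that passed in neither did. Leaving out 1 array kept 654 of 702, and 27 that passed in neither fit changed sign. The XCT790 falls from stimulated cells numbered 8 of 9 in every fit that left out 1 array. The array number as a replicate block changed 1 of 108 results, Dlst with stimulation in wild-type cells (0.26, adjusted p = 0.0303), and raised the interaction calls over all genes from 62 to 123. The estimation of array weights stopped before reaching its tolerance, and why results moved was not tested.

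The 13 changes of sign of a result that passed in either fit came from the choice of probe set. With the mean of all probe sets, Cs was 0.33 with stimulation in wild-type cells, 0.18 in knockout cells, 0.19 with XCT790 and 0.40 with compound A against rest, and Sdha -0.20 with stimulation in knockout cells. With 1422577_at, Cs was 0.97, 0.74, 0.88 and 1.21 in the same 4 comparisons. With 1422501_s_at, Idh3a was -0.084 for knockout against wild-type at rest and -0.66 for XCT790 against rest, with 1422500_at -0.013 for the former, and with 1426689_s_at Sdha was -0.42 with stimulation in knockout cells. Among the other genes, Pdha1 was 0.31 with stimulation in knockout cells with the mean of all probe sets.

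Counts of the 9 genes that moved by over 1.5 times were these. The interaction gave 1 with no filter, a trended and robust prior or array weights, against 0. Compound A against stimulated cells gave 2 with no filter, 0 with shifted arrays, 3 with the mean of probe sets, 8 with array weights, 5 in the compared groups alone, 2 with 1422577_at, 0 with 1422501_s_at and 2 with 1416478_a_at, against 1. Stimulation gave 8 in both genotypes with the mean of probe sets, against 5. Knockout against wild-type at rest gave 0 with the mean of probe sets and in the compared groups alone, and 1 with 1422501_s_at, 1422500_at or 1426689_s_at, against 2. Knockout against wild-type after stimulation gave 2 with array weights, and compound A against stimulated knockout cells 3 with array weights and 1 with 1422577_at, against 0 in both.

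Leaving out 1 array gave 1 to 2 calls for knockout against wild-type at rest, 0 to 1 for the interaction and for compound A against stimulated cells, 5 to 6 and 4 to 5 for stimulation in wild-type and knockout cells, 4 to 5 for compound A against rest, 6 to 7 for XCT790 against compound A and 7 to 8 against stimulated knockout cells. Over all genes it gave 612 to 1487 calls against 1308 for knockout against wild-type at rest, 66 to 136 against 150 after stimulation, 22 to 141 against 62 for the interaction and 1103 to 1735 against 1792 for compound A against stimulated knockout cells. Without replicates 2 or 3 of resting wild-type cells the first of these was 737 and 612, and without replicate 1 of resting knockout cells 848. Other settings over all genes gave 8197 against 5042 for stimulation in knockout cells with no filter, 39 (floor of log2 6), 1222 (array weights) and 38 (compared groups alone) for the interaction, 253 (mean of probe sets) and 1639 (array weights) for knockout against wild-type after stimulation, 2379 (array weights) and 176 (compared groups alone) at rest, and with array weights 4048 against 2283 and 3957 against 1792 for compound A against stimulated wild-type and knockout cells.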
